A study of Rattus norvegicus with 4 samples.

Results

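Npm1 and other nucleolar genes are a set of 8 rat genes, Npm1, Npm3, Ncl, Fbl, Nop56, Nop58, Dkc1 and Nop10, followed here on 4 expression arrays of the macrophage line NR8383. The set was chosen by gene symbol with the processed signals and detection flags of these arrays known, so neither is tested as support. Members were the gene spots on every array whose RefSeq transcript accession, without its version, maps to one of these symbols. This gave 14 probes for 7 of the 8 genes, out of 21109 named probes for 16581 genes and 45598 probes in all. No probe matched the accession of Npm3, so it has no value here. Npm1 had 4 probes, Ncl 3, Nop56 and Dkc1 2 each, and Fbl, Nop58 and Nop10 1 each. Of the 14 probes, 8 were printed 10 times on every array, 2 were printed 2 times and 4 were printed 1 time, which makes 88 spots per array.

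NR8383 is a line of alveolar macrophages started from lung lavage of a healthy rat and kept as a mix of attached and floating cells. The 4 samples form 1 group: cultures of this line after 20 passages, exposed for 4 h to the multi-walled carbon nanotube NRCWE006, a thin carbon fibre built of nested tubes, at a dose of 1 cm2/cm2 (particle surface over culture area). The study calls them biological replicates, and they are numbered 1 to 4 by their titles. The study's cultures without nanotubes were not analysed here, so every value below is a level or a difference between exposed cultures, and none is an effect of the exposure.

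The nucleolus is the part of the nucleus where ribosomal RNA is transcribed, trimmed, chemically modified and packed with ribosomal proteins. Npm1 encodes nucleophosmin, an abundant chaperone that shuttles between nucleolus and cytoplasm and helps to form the outer layer of the nucleolus, and Npm3 is a smaller relative of it. Ncl encodes nucleolin, an RNA-binding protein of ribosomal RNA synthesis. Fbl (fibrillarin, the methyltransferase), Nop56 and Nop58 are core proteins of the box C/D small nucleolar ribonucleoproteins, which methylate ribosomal RNA. Dkc1 (dyskerin, the pseudouridine synthase) and Nop10 are core proteins of the box H/ACA particles, which turn uridine into pseudouridine and are also part of telomerase. A small nucleolar RNA (snoRNA) guides each of these particles to its site.

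The promoters of Npm1, Ncl and Fbl are shown because Npm1 and Ncl had their highest level on the same array by each of their detected probes. Fbl was highest on that array too, by its 1 probe, but varied less between arrays. Each sequence is the 250 bases before the annotated transcription start, 5′ to 3′ on the gene's strand, from RefSeq on build GRCr8. They lie at chr10:18255742-18255991 on the minus strand for Npm1, chr9:94456084-94456333 on the minus strand for Ncl and chr1:92597157-92597406 on the plus strand for Fbl. Capitals mark matches on either strand to the motifs searched.
Npm1: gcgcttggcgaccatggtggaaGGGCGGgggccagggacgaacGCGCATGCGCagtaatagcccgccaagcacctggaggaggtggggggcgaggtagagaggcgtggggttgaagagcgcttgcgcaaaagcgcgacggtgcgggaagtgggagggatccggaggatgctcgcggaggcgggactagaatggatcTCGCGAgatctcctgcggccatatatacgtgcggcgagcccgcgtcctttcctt
Ncl: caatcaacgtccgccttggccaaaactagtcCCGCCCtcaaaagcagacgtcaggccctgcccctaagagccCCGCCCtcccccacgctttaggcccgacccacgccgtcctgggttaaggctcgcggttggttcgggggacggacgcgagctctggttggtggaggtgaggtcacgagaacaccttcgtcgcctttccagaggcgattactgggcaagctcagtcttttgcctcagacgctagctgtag
Fbl: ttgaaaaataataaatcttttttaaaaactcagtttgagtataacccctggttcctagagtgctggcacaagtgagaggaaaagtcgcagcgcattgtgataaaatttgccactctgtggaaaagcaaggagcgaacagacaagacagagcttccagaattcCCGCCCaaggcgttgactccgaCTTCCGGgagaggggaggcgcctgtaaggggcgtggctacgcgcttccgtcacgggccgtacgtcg

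Of all 33469 promoters in the RefSeq table, 30.5% hold the GC box GGGCGG in this window, and 7 of the 8 nucleolar genes do. The promoters of the 8 genes are also richer in G and C, with a median of 58.8% against 51.2% over all promoters. The part of this in the matches was not tested. CATGCGC, one arm of the palindrome that nuclear respiratory factor 1 binds, is in 3.26% of promoters and, among the 8, in that of Npm1 alone, where its 2 matches are the overlapping arms of 1 such palindrome. TCGCGA, read alike on both strands, is in 1.97% of promoters and in those of Npm1 and Nop58. The ETS core CCGGAAG (7.27% of promoters) is in those of Fbl, Nop58 and Dkc1. The E-box CACGTG (5.59%), which MYC and related factors bind, is in those of Npm3 and Dkc1. CCAAT (34.0%) is in that of Nop56 and TATAAA (12.9%) in that of Nop58. No other matches in the 8 promoters overlap. Npm1 and Ncl thus share the GC box and none of the other letters searched.

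The set also includes hosts of snoRNA genes. On the RefSeq annotation, 3 snoRNA genes lie inside Ncl, 5 inside Nop56, among them Snord57, Snord86 and Snord110, and 5 inside Nop58, so 3 of the 8 genes hold at least 1. Of all 23154 protein-coding genes, 415 (1.79%) hold one by the same rule, which uses position and not strand.

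Each sample was read on 1 array. Arrays are scaled to the 75th percentile of signal over those probes that are well above background on each of them, which was 223 to 384. Probes well above background numbered 4252 to 6476 per array. Replicate 4 stood apart: 2952 probes were well above background there and on no other array, against 96 to 918 for replicates 1 to 3. The software called 656 of its gene spots non-uniform, against 9 to 34 elsewhere. The macrophage markers Cd68, Lyz2, Fcgr1a and Spi1 were detected on every array, and 4 of the 10 macrophage markers, in all, were on no array. All measured markers of lung epithelium (5), fibroblasts (5), lymphocytes (3) and granulocytes or mast cells (4) were on no array. Of 4 endothelial markers, 1 (Vwf) was detected on every array and 2 were on no array. With 4 arrays, their number limits how precise any value can be.

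Most of the nucleolar genes were expressed well above background. Npm1, Ncl, Fbl, Nop56, Dkc1 and Nop10 had at least 1 probe called on all 4 arrays, which makes 6 of the 7 genes with a probe, and Nop58 had none on any array. The background for this count is 11.9%, over 16419 named genes with a value on each array. By probe, 11 of 14 were called on all 4 arrays, against 7.04% of all probes. Of the other three, 1 was called on replicate 4 alone and 2 on no array. As detection was known when the set was proposed, this count is a description. A call on an array means that more than 50% of the probe's usable spots carried the scanner software's flag for well above background. No spot of these probes was saturated.

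**Figure D1:**
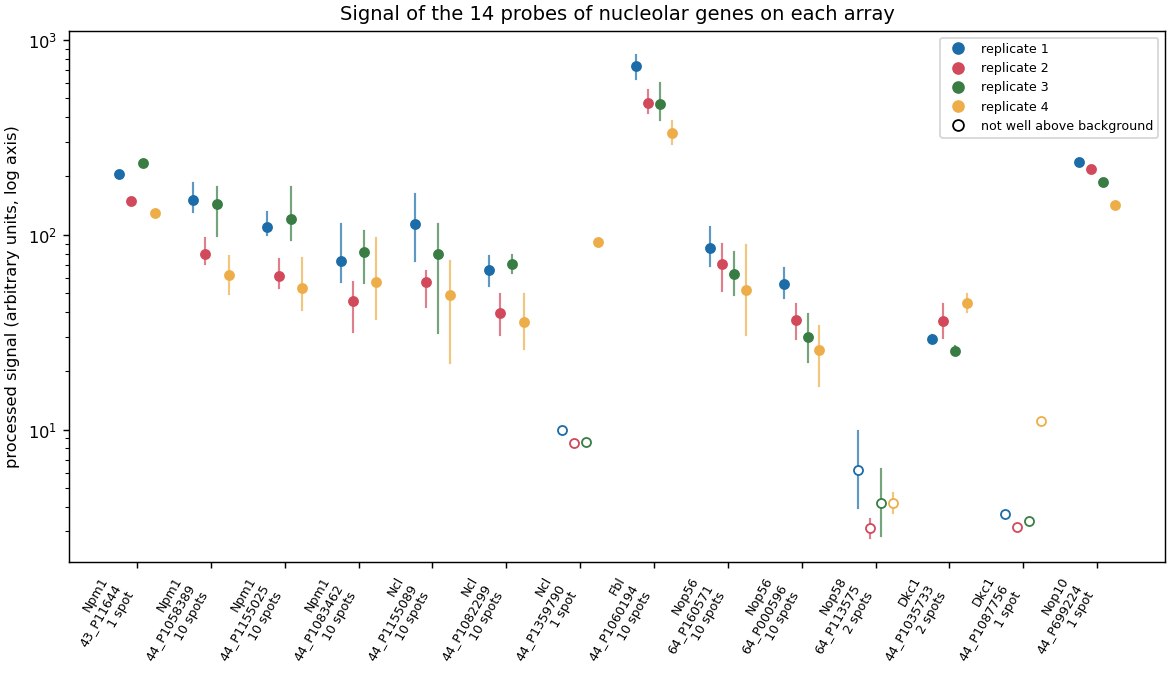
Processed signal (arbitrary units, log axis) of the 14 probes of nucleolar genes on the arrays of replicates 1 to 4. Points are geometric means over usable spots, vertical lines run from the lowest to the highest spot, open points were not well above background, and probe names are given without the leading A_. Fbl had signals of 332 to 733, Nop58 stayed between 3.11 and 6.22, and 1 probe of Ncl reached 92.2 in replicate 4 alone.

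In the scaled data, Npm1 was higher in replicate 3 than in the other cultures by all 4 of its probes. The probe with the highest level, A_43_P11644, had processed signals of 205, 148, 233 and 129 in replicates 1 to 4, from 1 spot per array. It was well above background on all arrays. Relative to the 75th percentile of each array, its log2 levels were -0.90, -0.92, -0.02 and -0.79, a mean of -0.66 ± 0.43 (SD, n = 4). Replicates 1, 2 and 4 lay close together and replicate 3 lay above them. In RNA from a whole culture, fewer cells that express a gene and less RNA per cell cannot be told apart.

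The other probes of Npm1 were each printed 10 times, and all their spots were well above background on every array. A_44_P1058389 had signals of 151, 79.4, 143 and 62.2, and levels of -1.34, -1.82, -0.73 and -1.84. A_44_P1155025 had signals of 110, 61.7, 120 and 53.5, and levels of -1.80, -2.19, -0.98 and -2.06. A_44_P1083462 had signals of 73.5, 45.7, 81.0 and 57.2, and levels of -2.39, -2.62, -1.54 and -1.96. On each of them replicate 3 had the highest level and replicate 2 or 4 the lowest. Without scaling, the signal of A_44_P1058389 was highest in replicate 1, the brightest array, and the other three probes were still highest in replicate 3.

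The spread between arrays was larger than the noise between spots of 1 array for all 3 of these probes. The median SD between the spots of an array was 0.19, 0.21 and 0.27 on the log2 scale for A_44_P1058389, A_44_P1155025 and A_44_P1083462, and their levels ranged over 2.17-, 2.31- and 2.11-fold between the highest and the lowest array. The moderated F test of limma, which takes spots as repeats of an array, with Benjamini-Hochberg adjustment over 1350 probes, gave adjusted p = 6.5e-15, 5.2e-14 and 2.4e-08. In this test 81.0% of all probes differed between arrays, and 7 of the 8 probes of nucleolar genes tested did, so passing it does not set Npm1 apart. Its error is that between spots. It compares arrays, and the RNA of a culture and its labelling or hybridisation cannot be told apart by it.

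**Figure D2:**
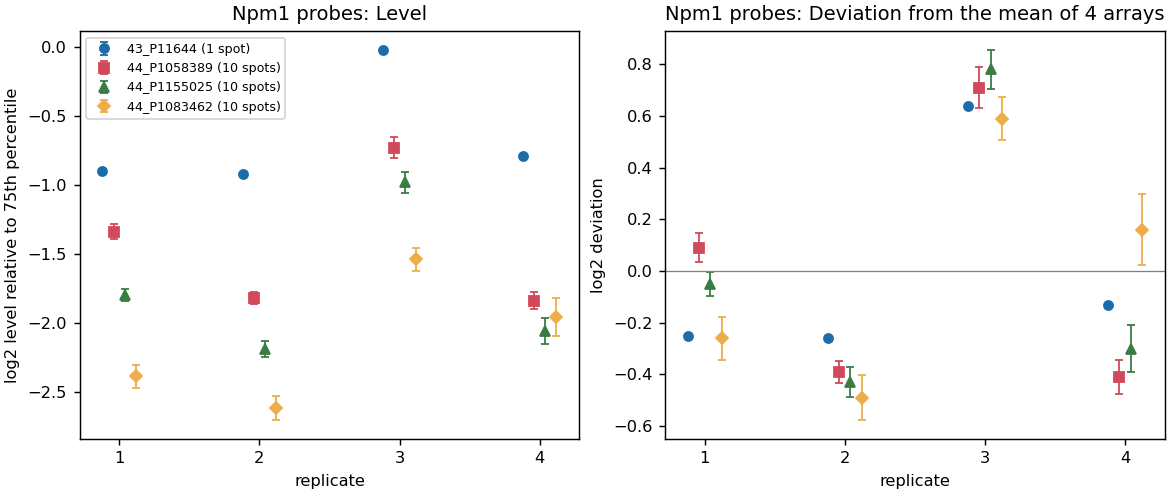
Npm1 by its 4 probes in replicates 1 to 4. The left panel gives the log2 level relative to the 75th percentile of the array and the right panel the log2 deviation of each probe from its own mean over 4 arrays; bars are the standard error over the spots of an array, and the probe printed 1 time has none. In replicate 3 the deviations lie between 0.59 and 0.78, and in replicate 2 between -0.49 and -0.26.

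Set against each other, the 4 probes of Npm1 agreed on replicates 2 and 3 and disagreed most on replicate 4. Deviations from the probe's own mean were 0.64, 0.71, 0.78 and 0.59 in replicate 3 for A_43_P11644, A_44_P1058389, A_44_P1155025 and A_44_P1083462. In replicate 2 they were -0.26, -0.39, -0.43 and -0.49, and in replicate 1 they were -0.25, 0.09, -0.05 and -0.26. In replicate 4 they were -0.13, -0.41, -0.30 and 0.16. There A_44_P1083462 lay above its mean while the other three lay below theirs.

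The log2 difference between 2 probes on the same array stays the same under any scaling by 1 factor per array, and it would be constant if both followed 1 RNA alike. Probes differ in how brightly they bind, so only its change from array to array is of use. Between A_44_P1058389 and A_44_P1155025 the difference was 0.46, 0.37, 0.25 and 0.22 in replicates 1 to 4, a range of 0.24. Between A_44_P1058389 and A_44_P1083462 it was 1.04, 0.80, 0.81 and 0.12, a range of 0.92, the largest of the 6 pairs of Npm1 probes. Between A_44_P1155025 and A_44_P1083462 it was 0.58, 0.43, 0.56 and -0.10. In both of these pairs replicate 4 differed from replicates 1 to 3 by more than the standard error between spots, which was 0.094 to 0.165 there in the second pair. On that array the spots of A_44_P1083462 also spread more, with an SD of 0.433 against 0.262 to 0.277 on the others.

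Over 80 such pairs of probes of 52 other genes, both printed 10 times and detected, the median range was 0.29, with 0.12 and 0.55 as the 10th and 90th percentiles. The range of 0.92 for A_44_P1058389 and A_44_P1083462 is above that 90th percentile and the 0.24 for A_44_P1058389 and A_44_P1155025 is below the median. Over replicates 1 to 3 alone, that first pair had differences of 1.04, 0.80 and 0.81. Without replicate 4 the largest range among the Npm1 pairs was 0.46. It was that of A_43_P11644, printed 1 time, and A_44_P1058389, with differences of 0.44, 0.90 and 0.71. With the normexp background correction the largest range was 0.41. The percentiles over other genes were not computed for these 2 settings. Pairs with the probe printed 1 time ranged over 0.37 to 0.62, against a median of 0.47 over 464 pairs of all kinds.

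**Figure D3:**
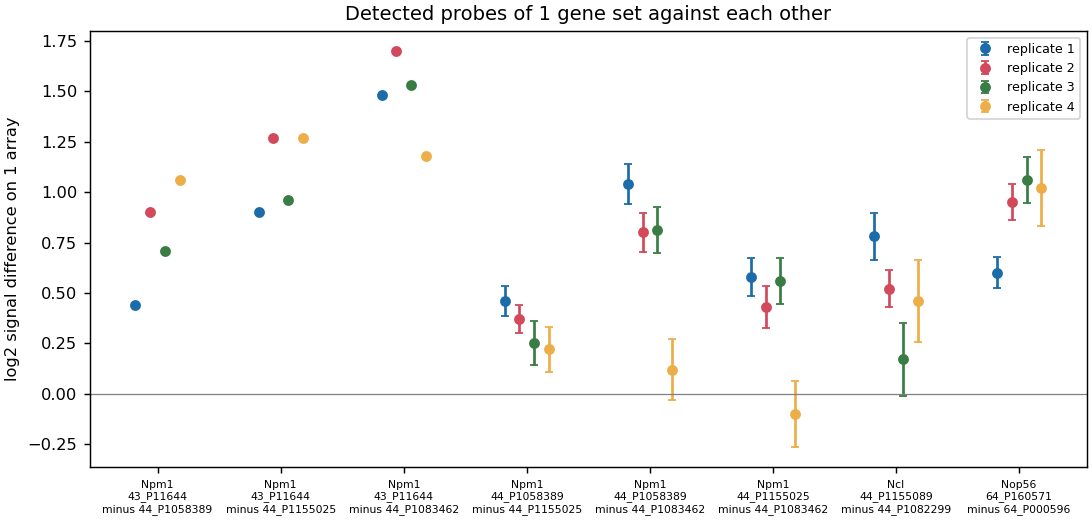
Log2 signal difference between 2 detected probes of 1 gene on the same array, for the 6 pairs of Npm1 probes and 1 pair each of Ncl and Nop56; probe names are given without the leading A_. Colours stand for replicates 1 to 4 and bars are the standard error over spots, absent for pairs with a probe printed 1 time. For A_44_P1083462 the difference from both other probes printed 10 times is smallest in replicate 4, at 0.12 and -0.10.

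Ncl was also highest in replicate 3 and lowest in replicate 2 by both of its detected probes. A_44_P1155089 had signals of 113, 57.0, 79.8 and 49.1 in replicates 1 to 4, and A_44_P1082299 had 65.7, 39.7, 70.9 and 35.6. Their levels were -1.77, -2.30, -1.56 and -2.18 for the first, a mean of -1.95 ± 0.35, and -2.55, -2.82, -1.73 and -2.65 for the second, a mean of -2.44 ± 0.48 (SD, n = 4). Replicate 3 stood higher above the rest on the second probe than on the first, where replicate 1 came near to it. Without scaling, the first was highest in replicate 1.

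The F test of limma gave adjusted p = 0.0012 for A_44_P1155089 and 1.2e-11 for A_44_P1082299. The first is the noisier, with a median SD of 0.417 between spots against 0.197. The log2 difference between them was 0.78, 0.52, 0.17 and 0.46 on replicates 1 to 4. In replicate 4, 1 spot of A_44_P1155089 was not well above background.

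The third probe of Ncl, A_44_P1359790, was printed 1 time and differed from both. Its signals were 9.91, 8.49, 8.59 and 92.2, and it was well above background in replicate 4 alone. In that culture the other probes of Ncl lay at 49.1 and 35.6, their lowest signals on any array. This probe is thus 1 of the 2952 that only the array of replicate 4 called, and whether it followed Ncl RNA there was not tested.

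Among the box C/D proteins, Fbl and Nop56 varied less between arrays than Npm1, with SDs of 0.19 and 0.12 against 0.43. Fbl had signals of 733, 474, 468 and 332 in replicates 1 to 4, in the order of the brightness of the arrays. Its levels were 0.93, 0.76, 0.99 and 0.58, a mean of 0.81 ± 0.19 (SD, n = 4), and the highest and lowest arrays differed 1.33-fold. With a median SD of 0.129 between spots, this small range still passed the F test of limma (adjusted p = 9.1e-05).

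Nop56 had signals of 85.1, 70.9, 62.5 and 51.8 by A_64_P160571 and 56.1, 36.6, 30.0 and 25.5 by A_64_P000596. Levels of the first were -2.17, -1.99, -1.92 and -2.11, a mean of -2.05 ± 0.12, and those of the second were -2.78, -2.94, -2.97 and -3.13, a mean of -2.95 ± 0.14 (SD, n = 4). The F test of limma gave adjusted p = 0.21 for the first, the only one of the 8 probes tested that did not pass, and 0.04 for the second. The first was highest in replicate 3 and lowest in replicate 1, and the second was highest in replicate 1 and lowest in replicate 4, so the probes did not order the cultures alike. Their difference was 0.60 in replicate 1 and 0.95 to 1.06 in the other three.

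Nop58, the partner of Nop56 in the same particle, was called on no array. Its probe gave signals of 6.22, 3.11, 4.21 and 4.20 in replicates 1 to 4, where the medians of the negative control spots were 3.36, 2.98, 3.31 and 4.65. In replicates 1 and 3 its signal was above the 95th percentile of those spots, 4.04 and 4.03. Whether the lack of a call reflects the probe or little Nop58 RNA was not tested, and it is not a measured level of 0.

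Of the box H/ACA proteins, Nop10 was steady and Dkc1 varied most of the set. Nop10 had signals of 237, 218, 186 and 142 and levels of -0.70, -0.37, -0.34 and -0.65, a mean of -0.51 ± 0.19 (SD, n = 4) from 1 spot per array. Dkc1 had signals of 29.2, 36.0, 25.4 and 44.6 by A_44_P1035733, printed 2 times, with levels of -3.72, -2.96, -3.22 and -2.32. Its mean was -3.06 ± 0.58 (SD, n = 4), and it was lowest in replicate 1 and highest in replicate 4, over a 2.63-fold range. By the brightest detected probe of each gene, it was the only member to range over more than 2-fold, as 15.3% of detected genes did, though 3 detected probes of Npm1 and 1 of Ncl that do not give the gene's value did so too. In unscaled signals it was lowest in replicate 3.

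Dkc1 was also the dimmest detected member. Its second probe, A_44_P1087756, was called on no array but had its highest signal in replicate 4 too, with 3.68, 3.16, 3.38 and 11.1. In replicate 4 the median of the negative control spots was 4.65, against 2.98 to 3.36 on the other arrays. The part of that array's higher background in the Dkc1 values was not tested.

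**Figure D4:**
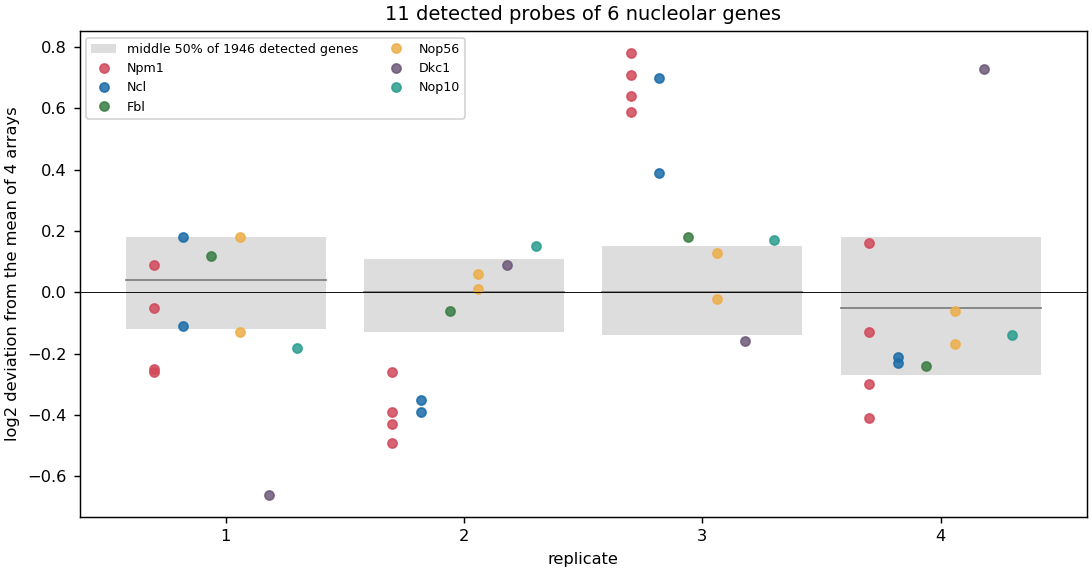
Log2 deviation of the 11 detected probes of 6 nucleolar genes from their own mean over 4 arrays, by replicate. Grey boxes hold the middle 50% of the 1946 detected genes and the grey line their median. In replicate 3 the Npm1 and Ncl probes lie at 0.39 to 0.78, above the grey box, which ends at 0.15, and Dkc1 lies at -0.66 in replicate 1 and 0.73 in replicate 4.

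Across the set, 9 of the 11 detected probes had their highest level in replicate 3, against 23.0% of all probes detected. These 9 are not independent, as 4 belong to Npm1 and 2 to Ncl. In the others, replicate 3 was close to the next array. Its level was 0.99 against 0.93 in replicate 1 for Fbl. Against replicate 2 it was -1.92 and -1.99 for Nop56 by A_64_P160571, and -0.34 and -0.37 for Nop10. The F test above, which Fbl passed, this Nop56 probe did not and Nop10 was not in, does not ask which array is highest. Without scaling 4 of 11 were highest there, against 1.87% of all. Set against the median detected gene, replicate 3 exceeded the mean of the other replicates by 0.85 on the log2 scale for Npm1, 0.51 for Ncl, 0.23 for Fbl, 0.17 for Nop56 and 0.23 for Nop10, and Dkc1 lay at -0.22. That median itself lay at 0.01 in this comparison, but at 0.30 with the percentile taken over all gene probes, at 0.12 with quantile normalization and at -0.29 on unscaled data. Relative to it, Npm1 lay between 0.53 and 0.86 over the other scalings and corrections run. For Dkc1 the sign turned, to 0.05 with normexp and 0.11 without replicate 4.

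The level of a probe minus that of Fbl on the same array also stays the same under any scaling by 1 factor per array. On this measure 6 of the other 10 detected probes, the 4 of Npm1 and 2 of Ncl, were highest in replicate 3, against 7.61% of all other detected probes. The deviation of Npm1 minus that of Fbl in replicate 3 was 0.46, 0.53, 0.60 and 0.41 for A_43_P11644, A_44_P1058389, A_44_P1155025 and A_44_P1083462. For Ncl it was 0.21 and 0.53, for the probes of Nop56 -0.05 and -0.20, for Nop10 0.00 and for Dkc1 -0.34. A_44_P1083462 lay as high in replicate 4, at 0.40, where the other Npm1 probes lay between -0.17 and 0.11. Nop56 by A_64_P160571 was highest in replicate 4, at 0.18, and Nop10 in replicate 2, at 0.21. Npm1 and Fbl thus changed unequally between the arrays. The SD over arrays was 0.43 for Npm1, 0.35 for Ncl and 0.58 for Dkc1, and 0.12 to 0.19 for Fbl, Nop56 and Nop10. Over the 6 genes its median was 0.266, near the 0.241 of all 1946 detected genes, whose 10th and 90th percentiles were 0.102 and 0.519. Without replicate 3 the median over the 6 genes was 0.167.

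The detected genes with the pattern most like that of Npm1 were Ostf1, Polr2k, Npdc1, Optn and Clec4a1, by the root mean square difference of levels centred on their mean over the 4 arrays. It was 0.07 for Ostf1, 0.09 for Polr2k, a small subunit shared by RNA polymerases, 0.10 for Npdc1, 0.11 for Optn, the autophagy receptor optineurin, and 0.12 for Clec4a1, a C-type lectin receptor. Each rested on 1 spot per array, as did the Npm1 probe they were set against, A_43_P11644. Their deviations in replicate 3 were 0.47 to 0.58, which follows from how they were picked. With the mean over detected probes in place of the brightest probe, 4 of these 5 were still among the nearest 5. Ncl stood 104th from Npm1 by this measure, with 0.26, ahead of Nop56 and Nop10 at 0.31, Fbl at 0.32 and Dkc1 at 0.65.

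Beyond the 8 genes, a written list of 140 genes of ribosome biogenesis placed them in their pathway. Of 113 measured on all arrays, 32 were detected on all 4, 22 on some arrays and 59 on none. Leaving out the 8 genes, 26 of 106 were detected (24.5%), against 11.9% of named genes. With detection set by negative control spots, 53 of the 113 were detected, or 47 of 106 (44.3%) without the 8 genes, against 20.5% of named genes by that rule.

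By step of the pathway, against the same 11.9% of named genes and with no test between steps, assembly of the large ribosomal subunit had 13 of 40 genes detected (32.5%) and RNA polymerase I with its factors 5 of 13 (38.5%). The small subunit processome, which cuts and folds the precursor of the small subunit, had 2 of 29 (6.9%) and the exosome with other RNA decay factors 1 of 10 (10.0%). Factors that assemble snoRNA particles had 2 of 7 (28.6%). These are counts of probes above background, and which of them reflect RNA level and which the probe was not tested.

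Levels of the named genes of these steps were as follows, as mean ± SD over 4 arrays. The nucleolar phosphoprotein Nolc1, a chaperone of snoRNA particles, lay at -1.80 ± 0.30 and Nop53, a large subunit factor, at -0.33 ± 0.10, while Mybbp1a was on no array. Snu13, the box C/D protein that binds the RNA first, had signals of 210, 146, 149 and 95.1 and lay at -0.93 ± 0.23. Its highest level was in replicate 3, with a deviation of 0.26. Gar1 of the H/ACA particle was on no array.

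The ATPases Ruvbl1 and Ruvbl2, which help to assemble snoRNA particles, lay at -1.60 ± 0.26 and -2.50 ± 0.27, both lowest in replicate 4, and Znhit6 was on no array. Polr1c and Polr1d, subunits shared by RNA polymerases I and III, lay at -0.70 ± 0.24 and -1.64 ± 0.18, and Polr1a, the largest subunit of polymerase I, was not well above background. Rrp9 and Noc4l of the small subunit pathway lay at -2.39 ± 0.87 and -2.74 ± 0.37, and Utp3 was on no array. Rrp9 had signals of 53.8, 42.8, 31.3 and 105, so replicate 4 was the high one. Pes1 and Wdr12, partners in 1 complex of large subunit assembly, lay at -1.85 ± 0.21 and -3.75 ± 0.34, and Brix1 was on no array. Exosc5 of the exosome lay at -1.65 ± 0.21 and Exosc3 was on no array.

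**Figure D5:**
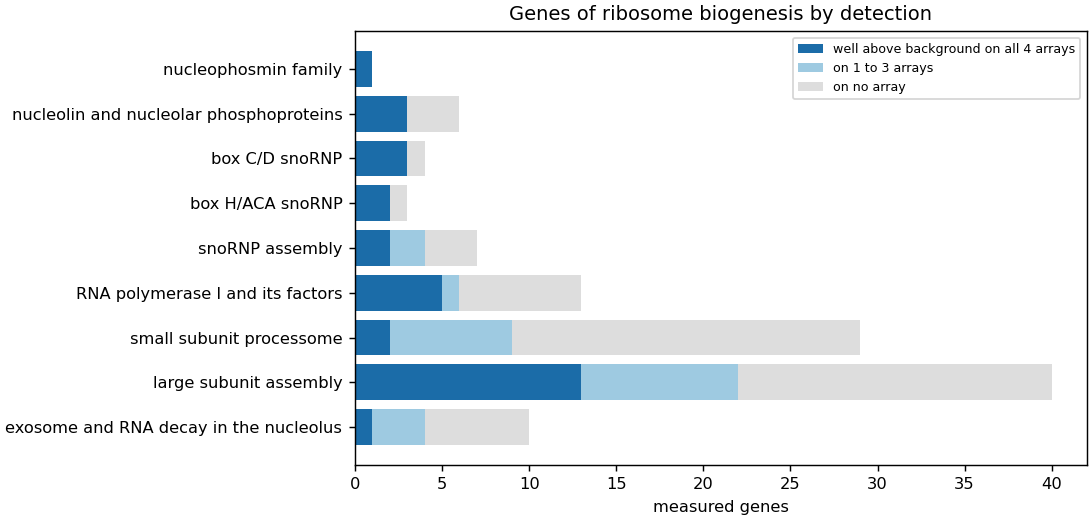
Number of measured ribosome biogenesis genes in each step, split into genes detected on all 4 arrays, on 1 to 3 or on none; members of the nucleolar set are included. Large subunit assembly has 13 of 40 detected on all arrays. The step labelled small subunit processome, which includes later small subunit factors, has 2 of 29.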

How the data were processed

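Each culture has 1 deposited scanner file, whose values are linear spot intensity, per the file headers. The processed signal is this intensity after the scanner software, which the submitters' processing notes name as Agilent Feature Extraction 11.0.1.1, subtracted background. The authors deposited it without scaling between arrays. Per the labels' protocols, Cy3-labelled material was made from 100 ng of RNA (integrity number over 7.5). Accessions were matched to RefSeq on assembly GRCr8. The headers name an older build, so no probe position is printed.

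Control spots and spots flagged as outliers or non-uniform (546 to 1296 per array) were left out, a probe's log2 signals were averaged over its spots, and arrays were scaled to the 75th percentile of the probes detected on all 4. The detected probe with the highest mean level gave a gene's value. Probes with at least 3 usable spots on every array were tested with limma version 3.58.1 in R version 4.3.3, checked on simulated data. Python version 3.11.15 did the rest.

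The members and lists were chosen with earlier results of these data known. The text names all members and, per step of the list, the first 2 detected genes and the first 1 on no array, and the 5 genes nearest to Npm1. Alternatives were detection by negative control spots (95th percentile plus 10%) or on 3 arrays, all spots kept, other scalings, normexp with an offset of 50, other probe rules and leaving out each replicate. Normexp used the deposited median signal and median background intensity. The probes' own sequences and the members' protein sequences were not used here. The 4 arrays shared 1 slide and 1 scan time.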

Additional observations from a re-analysis of the deposited data

Results flagged for a closer look

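Of the 14 probes, 2 had 1 array far from the other three, by the gap between that array and its nearest neighbour as a share of the probe's whole range. For the Npm1 probe A_43_P11644 this share was 0.851, with replicate 3 highest, and for the Ncl probe A_44_P1359790 it was 0.876, with replicate 4 highest. Both shares are above the 95% critical value of Dixon's test for 4 values, used here only as a cut-off. The share of all probes above it was not computed, so 2 of 14 has no background. The shares are from scaled levels. Unscaled, the Npm1 probe had 233 in replicate 3 and 205 in replicate 1, with 148 and 129 in the others, so its flag depends on the scaling. The Ncl probe had 92.2 in replicate 4 and 8.49 to 9.91 elsewhere. Both probes were printed 1 time on each array. The signals were known when the set was chosen, so these flags are a description. The other probes of Npm1 were also highest in replicate 3, but none of them was flagged by this rule. The other probes of Ncl were not highest in replicate 4.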

How the results depend on the processing

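Of 88 alternative values of the main results, 78 stayed within the spread between replicates or within 1.5 times the count. The count of 6 detected genes was the same under every alternative run, and that of probes was 11 or 12. Detected ribosome biogenesis genes numbered 53 by negative control spots (20.5% of named genes), against 32 (11.9%). They numbered 42 with detection on at least 3 of 4 arrays and 32 to 39 without 1 replicate. The share of named genes was not computed for these settings. The mean level of Npm1, -0.66, was 4.98 scaled by all gene probes, 7.44 with no scaling and -1.49 as the mean over detected probes. These shifts arise by construction of the scale or the probes averaged. It was -0.79 to -0.21 without 1 replicate, where the scale was set anew by the probes detected on the arrays kept. Without replicate 4 the mean levels of the other 5 genes rose too, Fbl from 0.81 to 1.29, Ncl from -1.95 to -1.48 and Dkc1 from -3.06 to -2.90. The median SD of the genes, 0.266, was 0.91 scaled by all gene probes and 0.167 to 0.30 without 1 replicate. The largest change between 2 Npm1 probes, 0.92, was 0.41 with normexp, whose offset of 50 shrinks differences of dim probes, and 0.46 to 0.92 without 1 replicate. Nucleolar probes highest in replicate 3 numbered 9, where 23.0% of all detected probes were highest there. With no scaling they numbered 4, where 1.87% of all were. They numbered 6 where all gene probes set the percentile (9.16% of all), and 7 under normexp (24.5%). The share over all detected probes thus changed with the setting too. By limma, 6 to 8 of 8 probes differed between arrays over the alternatives, against 57.9% (quantile normalization) to 96.4% (no scaling) of all probes tested. For the levels and shifts of the other 5 genes, 19 of 105 values moved by more than their SD. No paired analysis was possible because there is 1 group. Signals near background limit Nop58, Dkc1 and the third probe of Ncl.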

Other observations

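The 26 detected genes of ribosome biogenesis outside the set were highest in replicates 1 to 4 in 6, 4, 8 and 8 cases, and their median deviation was 0.08, -0.01, 0.02 and -0.10. Their median SD over arrays was 0.245.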
